A study of Rattus norvegicus with 8 samples.

Results

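The 7 genes Hmgcs1, Idi1, Fdps, Sqle, Cyp51, Insig1 and Srebf2 were followed in rat liver as one set: 5 enzymes of cholesterol synthesis and 2 genes of its sterol-sensing control. They were chosen by name, with earlier results of these data known, and matched through the RefSeq identifier of each array probe. They are 7 of the 10004 named genes with a probe kept for analysis, out of 15154 named genes with any probe. Where a gene had more than 1 probe, the probe of the brightest mean Cy5 signal stood for it. None of the 7 is a receptor that takes up cholesterol, so the uptake genes are given further down from a list of their own. All 7 were well above background in Cy5 on 8 of 8 arrays and none was saturated in Cy5. Saturation in Cy3 was not examined.

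The livers came from male Sprague-Dawley offspring sampled as adults, at 78 to 86 days of age. In the control group, called control here, the dams had received corn oil and no agonist. In the exposed group, called AhR, the dams had received a mixture of agonists of the aryl hydrocarbon receptor (non-ortho-PCBs, PCDDs and PCDFs) at 1.8 ng per kg per day, counted as TCDD toxic equivalents, from gestation day 0 to postnatal day 20. Each group had 4 arrays, and each array held RNA pooled from 2 rats, so that 8 pups stood behind a group. The pups were not cross-fostered, and the labels do not say whether pools shared a litter, so p-values measure the spread between pools. Liver RNA carried Cy5 and the same reference RNA, from 14 rat cell lines, carried Cy3 on every array, with no dye swap. All values below are log2 of Cy5 over Cy3, so that 0 means equal brightness of liver and reference. Because the probe and the reference set this level, levels are compared between arrays for 1 gene and never between genes.

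Liver cells build cholesterol from acetyl-CoA, first along the mevalonate steps to farnesyl diphosphate and then, from squalene onward, along the sterol steps. The transcription factor SREBP2, encoded by Srebf2, switches on most of these enzymes and genes of cholesterol uptake when sterols in the endoplasmic reticulum are low. When sterols are plentiful, INSIG proteins hold the SREBP2 escort SCAP in the endoplasmic reticulum and SREBP2 stays inactive, and Insig1 is itself a target of SREBP. Many of these transcripts in liver also follow feeding and the time of day.

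The 8 arrays were on 1 slide. Median Cy5 brightness ran from 159 to 232 across arrays over a local background of 71 to 76, and 56.2% to 62.0% of probes were well above background. Control array 1 differed from the other controls in its Kupffer cell and macrophage markers: all 9 of 9 measured markers were lowest there among the controls, with a list mean of -0.86 against -0.12 to 0.14 on the other 3, and the AhR arrays ranged from -0.28 to 0.37. None of these 9 markers was at background, and their part in the values below was not tested. Other arrays stood apart in other lists. The mean of 5 erythroid markers was 0.44 on control 2 against -0.87 to -0.75 on the other controls, and -1.50 to -0.37 in AhR arrays. The mean of 5 endothelial markers was -0.52 on control 3 against -0.24 to -0.03 on the other controls, and -0.24 to 0.14 in AhR arrays. The mean of 12 hepatocyte markers ran from -0.05 to 0.28 in control arrays and from 0.01 to 0.26 in AhR arrays. In RNA of whole liver, fewer cells of a type and less RNA per cell cannot be told apart.

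The promoters of 4 of the genes are shown because the data place them differently: Hmgcs1 and Idi1 stood more than 2-fold above the other controls on the same array, where Fdps was higher by only 1.18-fold and Insig1 was the lowest of the controls. Sequences are the 250 bases before the annotated start, 5′ to 3′ on the gene's strand, from RefSeq on build GRCr8, and 6 of the 7 genes had an entry. Capitals mark matches, on either strand, to CCAAT, the binding motif of NF-Y, a partner of SREBP at sterol promoters, and to CACNCCAC, a form of the sterol regulatory element. The strings were searched for as written, and the motifs do not overlap each other here.
Hmgcs1 (GRCr8, chr2:53382054-53382303, plus strand): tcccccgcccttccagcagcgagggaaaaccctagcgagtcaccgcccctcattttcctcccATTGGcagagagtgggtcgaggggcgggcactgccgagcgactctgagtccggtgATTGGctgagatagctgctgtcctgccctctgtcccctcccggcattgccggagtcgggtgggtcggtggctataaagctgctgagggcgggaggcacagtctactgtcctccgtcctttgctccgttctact
Idi1 (GRCr8, chr17:66547525-66547774, minus strand): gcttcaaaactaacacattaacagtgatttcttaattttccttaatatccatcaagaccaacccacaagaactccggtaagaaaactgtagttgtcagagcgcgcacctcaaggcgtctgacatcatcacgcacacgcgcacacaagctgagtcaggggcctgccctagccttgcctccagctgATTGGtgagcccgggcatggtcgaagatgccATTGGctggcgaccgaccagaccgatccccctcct
Fdps (GRCr8, chr2:176804817-176805066, minus strand): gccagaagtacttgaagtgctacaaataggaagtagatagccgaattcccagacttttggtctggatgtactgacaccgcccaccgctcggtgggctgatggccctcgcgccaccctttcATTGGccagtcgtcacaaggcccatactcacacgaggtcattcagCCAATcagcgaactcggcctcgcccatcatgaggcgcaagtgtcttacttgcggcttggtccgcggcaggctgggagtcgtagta
Insig1 (GRCr8, chr4:8057770-8058019, minus strand): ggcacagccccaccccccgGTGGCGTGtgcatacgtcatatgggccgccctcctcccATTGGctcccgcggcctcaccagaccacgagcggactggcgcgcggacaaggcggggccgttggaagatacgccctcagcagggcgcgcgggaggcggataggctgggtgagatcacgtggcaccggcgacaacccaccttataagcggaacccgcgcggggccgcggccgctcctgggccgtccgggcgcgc

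CCAAT matched 5 of the 6 promoters (Hmgcs1, Idi1, Fdps, Insig1 and Srebf2). It matched 34.0% of the 33469 promoters in the table and 36% of the 8626 promoters of kept genes. The Hmgcs1, Idi1 and Fdps windows each held 2 matches. CACNCCAC matched only the Insig1 window among the 6, once, against 4.89% of all promoters and 5.07% of those of kept genes. GGGCGG, the core of a GC box, matched 5 of the 6 (all but Idi1), against 30.5% of all promoters and 55.5% of the 8626 promoters of kept genes. A match describes the letters in this window and is not a measured binding site. The Cyp51 window held no CCAAT.

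**Figure D1:**
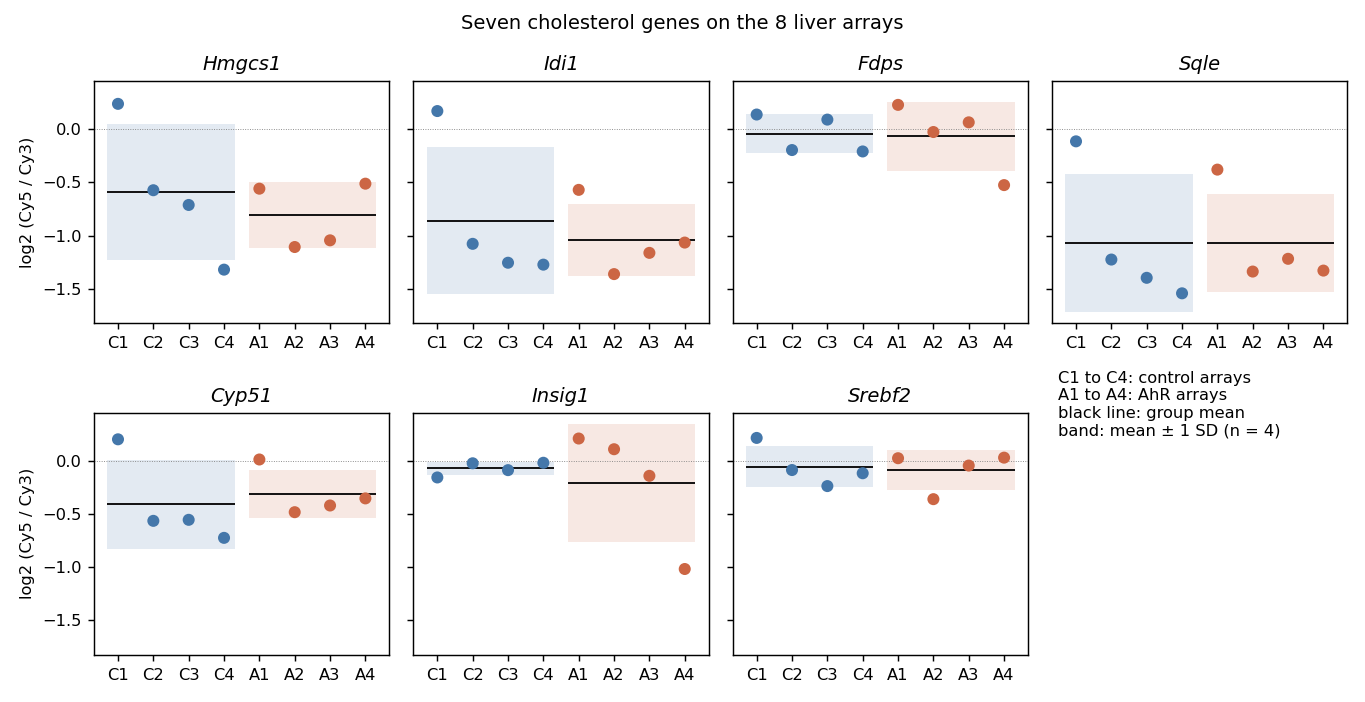
Log2 ratio of liver (Cy5) over reference RNA (Cy3) for the 7 genes on 4 control arrays (C1 to C4) and 4 AhR arrays (A1 to A4). Points are single arrays, each a pool of 2 rats; black lines are group means and bands are 1 SD. C1 is the highest control for every gene but Insig1, A1 is the highest AhR array for 5 of the 7, and Insig1 is lowest on A4.

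Among the mevalonate enzymes, Hmgcs1 and Idi1 were much higher on 1 control array than on the other 3. Hmgcs1 encodes the cytosolic HMG-CoA synthase, which acts early in the mevalonate steps. Its log2 ratio was 0.24, -0.57, -0.71 and -1.32 on control arrays 1 to 4, and -0.56, -1.11, -1.04 and -0.51 on AhR arrays 1 to 4. Control 1 was the highest of the 8 and control 4 the lowest, so that the AhR arrays lay inside the control range. Control 1 was 2.16-fold above the mean of the other 3 controls.

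Idi1 encodes isopentenyl diphosphate isomerase, which interconverts the pathway's 2 five-carbon units. Its ratio was 0.17, -1.08, -1.26 and -1.27 in controls, and -0.57, -1.36, -1.16 and -1.07 in AhR arrays. The first array of each group stood above its other 3, by 2.59-fold in controls and by 1.55-fold in AhR, and the remaining 6 arrays spanned only -1.36 to -1.07.

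Fdps encodes farnesyl diphosphate synthase, the last mevalonate enzyme before the branch to sterols. Its ratio was 0.14, -0.19, 0.09 and -0.21 in controls, and 0.23, -0.02, 0.07 and -0.52 in AhR arrays. It moved less than Hmgcs1 and Idi1, and its lowest value was on AhR 4. Its other probe gave 0.01, -0.35, -0.20 and -0.36 in controls, and 0.11, -0.24, -0.06 and -0.56 in AhR arrays. Both probes placed AhR 1 highest and AhR 4 lowest, and they differed by 0.04 to 0.29 on any array.

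Both sterol-step enzymes repeated the pattern of Idi1. Sqle encodes squalene epoxidase, which starts the oxygen-dependent part of the pathway and is a main flux-controlling step. Its ratio was -0.11, -1.23, -1.40 and -1.54 in controls, and -0.38, -1.34, -1.22 and -1.33 in AhR arrays. Control 1 was 2.42-fold above the other controls and AhR 1 was 1.89-fold above the other AhR arrays, with no overlap between these 2 arrays and the remaining 6.

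Cyp51 encodes lanosterol 14-alpha-demethylase, the cytochrome P450 of the pathway. Its ratio was 0.21, -0.56, -0.55 and -0.72 in controls, and 0.02, -0.48, -0.42 and -0.35 in AhR arrays. The same 2 arrays were highest, by 1.76-fold and 1.35-fold over the rest of their groups.

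The 2 control genes differed from each other in which arrays were high. Insig1 had -0.15, -0.02, -0.08 and -0.02 in controls, and 0.21, 0.11, -0.14 and -1.02 in AhR arrays. The 4 controls lay close together, while AhR 4 was at 0.47 times the mean of the other AhR arrays. Control 1, the array with the highest enzyme values, had the lowest Insig1 of the controls. Srebf2 had 0.22, -0.08, -0.24 and -0.11 in controls, and 0.03, -0.36, -0.04 and 0.03 in AhR arrays. It spanned 1.49-fold over the 8 arrays, against 2.95-fold for Hmgcs1, 2.90-fold for Idi1 and 2.70-fold for Sqle, with its highest value again on control 1.

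The comparison of AhR with control asks whether exposure before weaning left a difference in these transcripts in the adult liver. No gene of the 7 differed between the groups beyond the spread between arrays. With limma over all 17859 kept probes, 0 of the 7 passed an adjusted p of 0.05 (Benjamini-Hochberg), and percent called over all probes was 0%, with the lowest adjusted p at 1.00. At an unadjusted p under 0.05, 0 of the 7 and 288 probes (1.61%) passed. No member had groups that did not overlap, which happened for 0.633% of probes with AhR higher and for 0.56% with AhR lower.

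**Figure D2:**
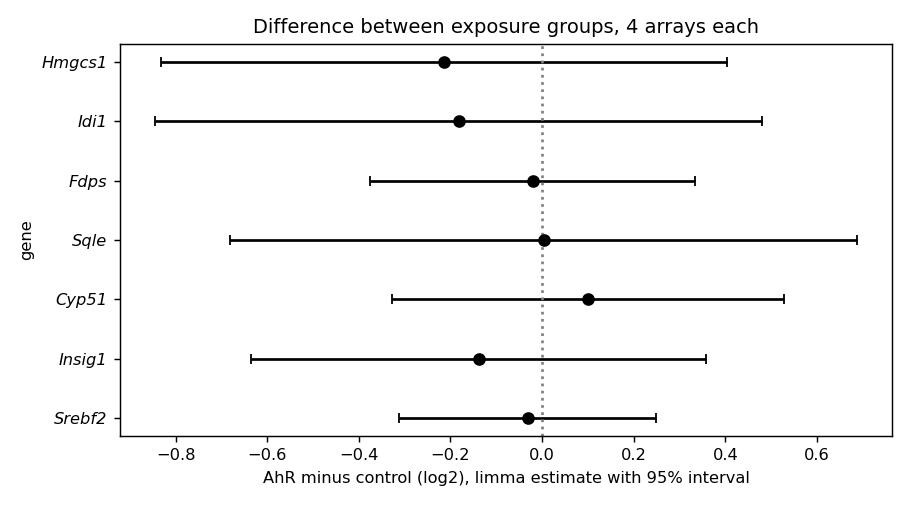
Difference AhR minus control in log2 for the 7 genes, as points with 95% intervals from limma, 4 arrays per group. Every interval includes 0; Sqle, Idi1 and Hmgcs1 have the widest intervals.

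Hmgcs1 had a mean of -0.59 ± 0.64 in controls and -0.81 ± 0.31 in AhR (SD, n = 4), a difference of -0.21 with a 95% interval of -0.83 to 0.40. Idi1 differed by -0.18 (-0.84 to 0.48), from -0.86 ± 0.69 to -1.04 ± 0.34. Sqle was at -1.07 ± 0.65 and -1.07 ± 0.46, and its interval ran from -0.68 to 0.69. At their wider ends these 3 intervals reach past the pooled SD within groups (0.51 for Hmgcs1, 0.55 for Idi1 and 0.56 for Sqle). Similar levels in the groups were thus not shown. Cyp51 differed by 0.10 (-0.33 to 0.53), Fdps by -0.02 (-0.37 to 0.33) and Insig1 by -0.14 (-0.64 to 0.36). Srebf2 had the narrowest interval, -0.31 to 0.25 around -0.03, from -0.05 ± 0.19 to -0.08 ± 0.19. Two-sided exact permutation p-values over the 70 assignments of arrays ran from 0.600 for Cyp51 to 0.971 for Sqle, and the smallest p this design allows is 0.0286. The mean was higher in AhR for 2 genes and lower for 5, with a median of -0.03 against -0.00 over all genes. Single arrays turned several of these signs: without control 1, Hmgcs1 became 0.06, Idi1 0.16, Fdps 0.04 and Srebf2 0.06, without AhR 1 Sqle became -0.23 and Cyp51 -0.01, and without AhR 4 Fdps and Insig1 each became 0.13.

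The slide had 2 rows with 2 arrays of each group, and the difference turned its sign between them. In the row with controls 1 and 3 and AhR 2 and 4, all 7 genes were lower in AhR, by values from -0.15 for Srebf2 to -0.67 for Idi1, with -0.57 for Hmgcs1 and -0.58 for Sqle. In the row with controls 2 and 4 and AhR 1 and 3, all 7 were higher in AhR, from 0.06 for Insig1 to 0.59 for Sqle, with 0.15 for Hmgcs1 and 0.31 for Idi1. The rows divide control 1 from AhR 1, so for the genes high on them these values carry those 2 arrays. Insig1 was not high on control 1. The first of these rows also held AhR 4, the lowest of the 8 arrays for Insig1 (-1.02) and Fdps (-0.52). A part of the slide row itself was not tested.

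The 7 genes did not move as one group. Of their 21 pairs, 11 had a Pearson r of 0.7 or more over the 8 arrays (52.4%), against 4.28% of the 50035006 pairs of named genes, and the median r was 0.73 against 0.00. All 10 pairs among Hmgcs1, Idi1, Sqle, Cyp51 and Srebf2 were in this count, with r from 0.73 to 0.96. These 5 genes were set together after their values were seen. The 7 were also chosen with earlier results of these data known, so the shares and p-values here describe this set and are not an independent test. The closest pair was Sqle with Cyp51, at r = 0.96 (exact permutation p = 0.00134) and rho = 0.81 (p = 0.0218). Hmgcs1 with Idi1 had r = 0.88 (exact permutation p = 0.00362) and rho = 0.93 (p = 0.00223). Over the 21 pairs, 7 passed an adjusted p of 0.05 by exact permutation of r, and 2 by rho (Hmgcs1 with Idi1 and Idi1 with Srebf2, each with adjusted exact permutation p = 0.0234).

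**Figure D3:**
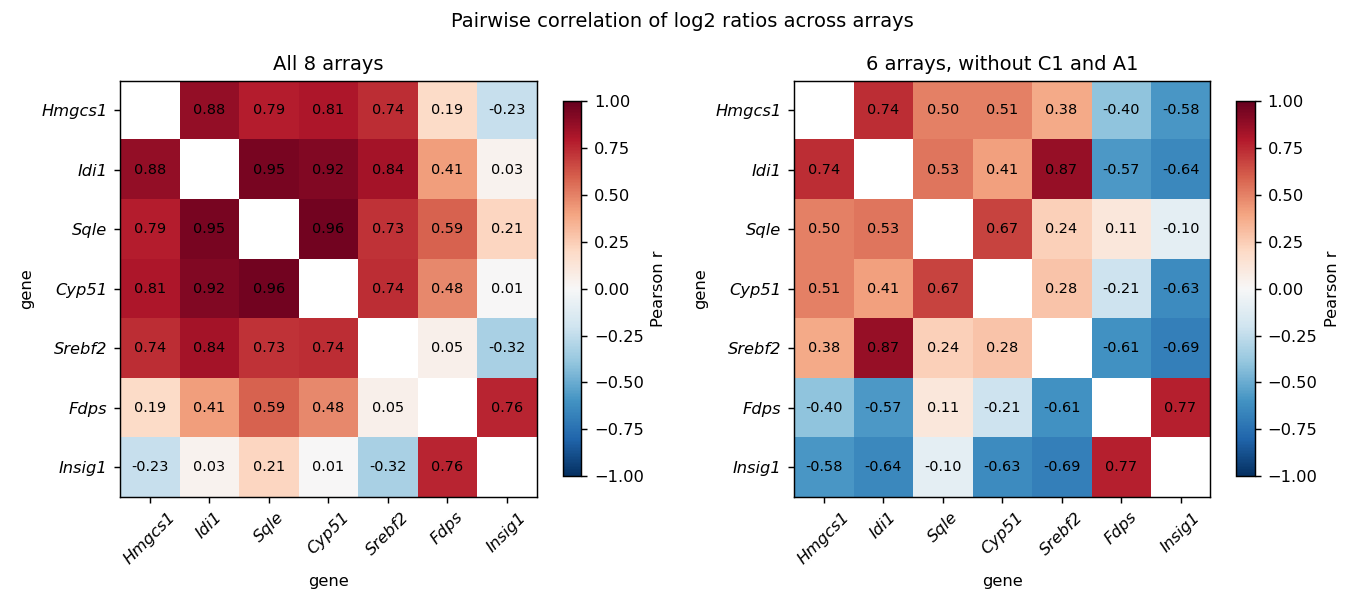
Pearson r of the log2 ratios for every pair of the 7 genes, over 8 arrays on the left and over 6 arrays, without control 1 (C1) and AhR 1 (A1), on the right. The block of Hmgcs1, Idi1, Sqle, Cyp51 and Srebf2 has r of 0.73 to 0.96 on the left and 0.24 to 0.87 on the right.

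Much of this relation rested on few arrays. Each pair was also taken without the 2 arrays farthest from the median of its first gene. Of the 11 pairs, 1 then stayed at 0.7 or more: Idi1 with Srebf2, at 0.87. In these 11 pairs the arrays left out were control 1 and AhR 1 for Idi1, Sqle and Cyp51 as first gene. They were control 1 and control 4 for Hmgcs1, and control 4 and AhR 4 for Fdps. Leaving out extreme arrays tends to lower r for any pair, and the share for other gene pairs is not given here. The median r of the 21 pairs was 0.477 without control 1 alone and 0.713 without AhR 1 alone. Without both control 1 and AhR 1, chosen after the values were seen, it was 0.24. The 10 pairs of the 5 genes then had r from 0.24 to 0.87 with a median of 0.50, all above 0, and 2 of the 10 stayed at 0.7 or more (Hmgcs1 with Idi1 at 0.74, Idi1 with Srebf2 at 0.87). With only 6 arrays left, an r of this size is a description.

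Insig1 and Fdps stood apart from the other 5. The 6 pairs with Insig1 had a median r of 0.02, and its only high pair was with Fdps at r = 0.76 (exact permutation p = 0.0499, adjusted p = 0.0952) and rho = 0.26. That r fell to 0.12 without AhR 4, where both genes were lowest. The pairs of Fdps had a median r of 0.45. Against the mean of the other 6 genes, Sqle had r = 0.98, Idi1 0.92, Cyp51 0.89, Hmgcs1 0.70, Srebf2 0.60, Fdps 0.53 and Insig1 0.09.

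The spread between arrays of 1 group was wide for most of the set. The pooled SD within groups was 0.56 for Sqle, 0.55 for Idi1 and 0.51 for Hmgcs1, at or above the 98.2 percentile of the 10004 genes. Insig1 had 0.40 (95.8 percentile), Cyp51 0.33 (92.5), Fdps 0.26 (83.7) and Srebf2 0.19 (59.8), against a median of 0.17 over all genes. Repeated spots of 1 probe on 1 array differed by an SD of 0.02 to 0.08. That spread lies within 1 array and leaves out labelling and hybridisation, which cannot be told apart here from the pools. Control 1 carried much of the spread between arrays: without it, the median SD of the 7 genes was 0.274 in place of 0.40. Without AhR 1 alone the median SD was 0.378, and without AhR 4 alone 0.365. Without both control 1 and AhR 1 it was 0.16, and the like value over all genes is not given here.

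**Figure D4:**
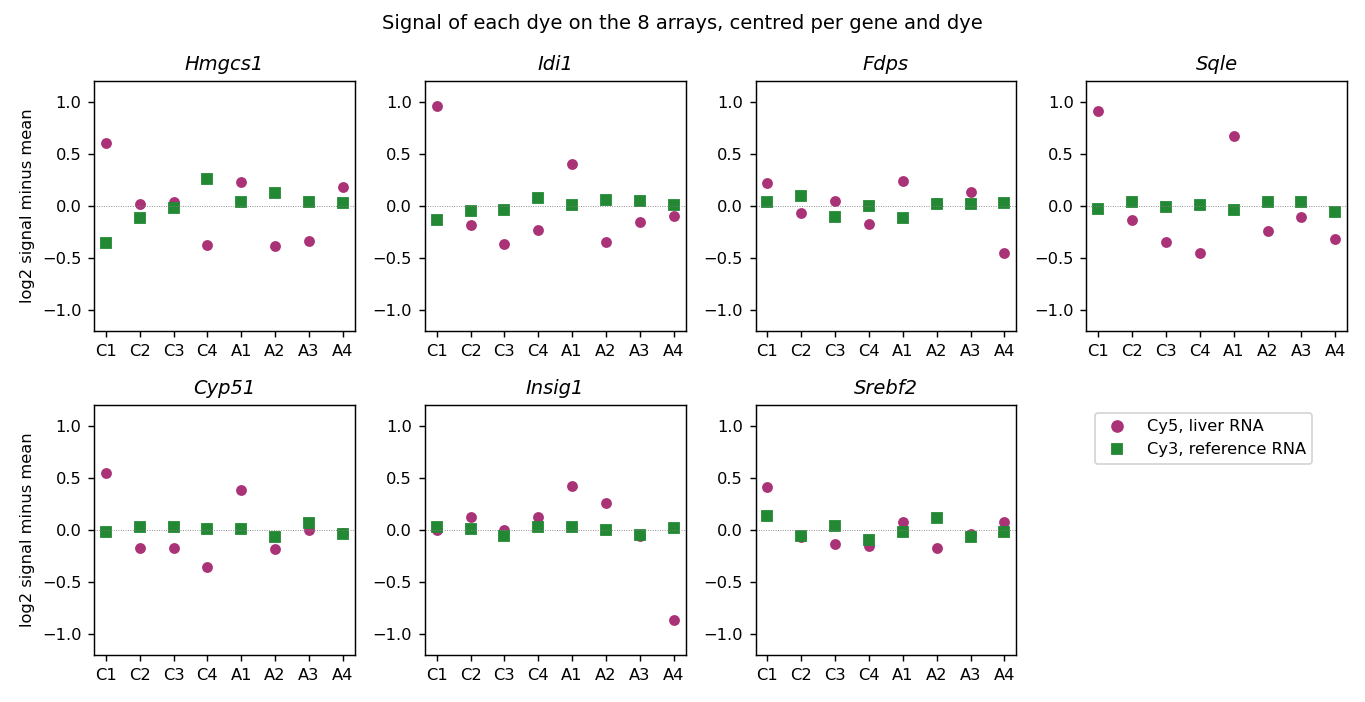
Background-corrected log2 signal of Cy5 (liver, circles) and Cy3 (reference, squares), quantile-normalized between arrays for each dye, for the 7 genes on the 8 arrays. Each is centred on its mean. Cy5 moves over a wider range than Cy3 for every gene; Hmgcs1 has the widest Cy3 range, lowest on C1 and highest on C4.

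The wide values lay in the liver channel. In Cy5 alone the log2 signal of Sqle ranged over 1.36 and that of Idi1 over 1.32, while Cy3 ranged over 0.09 and 0.23. For Insig1 the ranges were 1.27 in Cy5 and 0.10 in Cy3. Cy5 had the wider range for 7 of 7 genes. Hmgcs1 was the exception in degree: its Cy3 signal ranged over 0.61, from 15.26 on control 1 to 15.87 on control 4, beside a Cy5 range of 0.99. On the same 2 arrays its Cy5 signal was 16.22 and 15.24, so both channels, moving in opposite directions, contributed to the 1.56 range of its ratio, although the labels give 1 reference RNA for all arrays. The median r of the 21 pairs was 0.75 in Cy5 and -0.09 in Cy3. Hmgcs1 with Idi1 was the pair with a high r in Cy3 as well, at 0.96.

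The rest of the pathway was measured through 4 lists, with 40 of 46 genes kept, the 7 among them. None of the 40 passed the adjusted threshold in limma, where percent called over all probes was 0%, and 2 passed an unadjusted p under 0.05, against 1.61% of all probes. Both act in the pathway and were lower in AhR: Pmvk, phosphomevalonate kinase, by -0.31, and Erg28, a scaffold of sterol C4 demethylation, by -0.29, each with an adjusted p of 1.00. Erg28 had -0.21, -0.56, -0.39 and -0.49 in controls, and -0.70, -0.63, -0.82 and -0.66 in AhR arrays. It was the only one of the 40 whose groups did not overlap, which happened for 0.56% of all probes with AhR lower and for 0.633% with AhR higher.

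**Figure D5:**
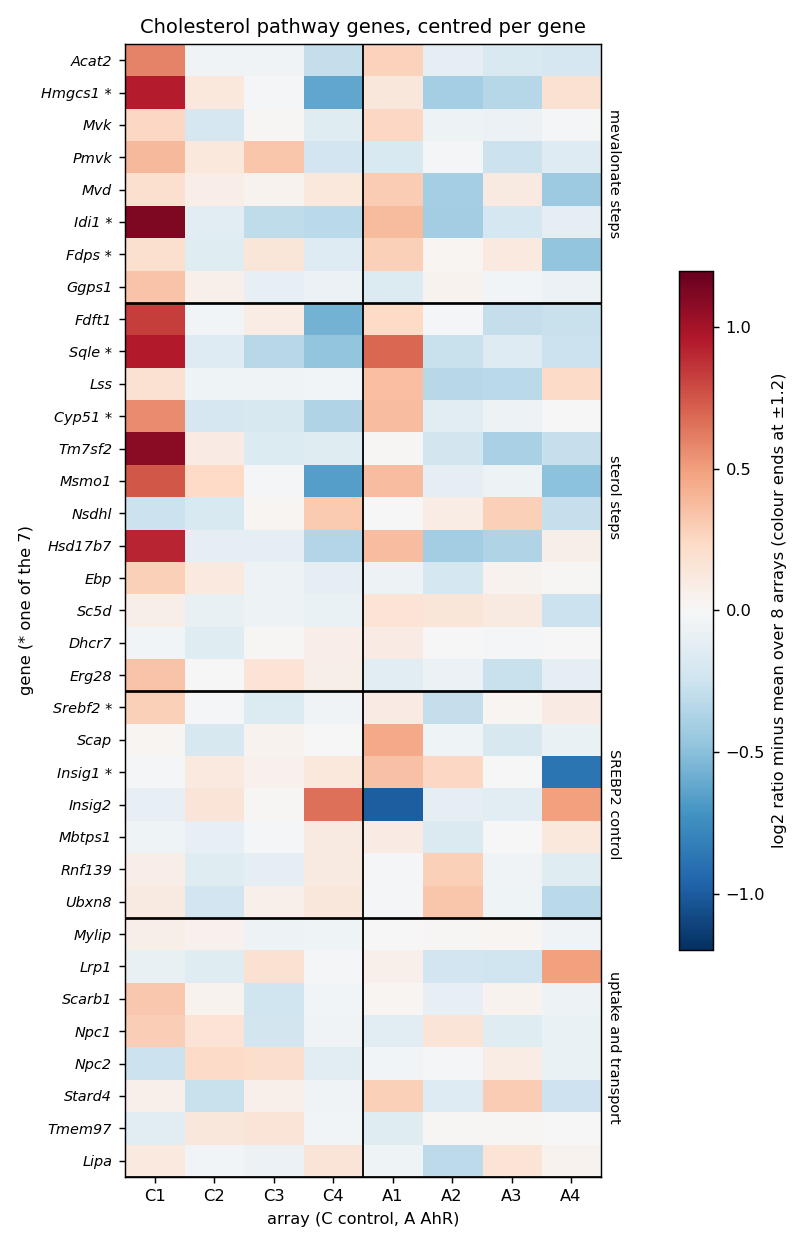
Log2 ratio of 35 genes of the 4 cholesterol lists on the 8 arrays, each gene centred on its mean; stars mark the 7 genes. Red on C1 and, more weakly, on A1 runs through many mevalonate and sterol enzymes and is not general in the control and uptake lists.

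Of the mevalonate steps 9 of 10 genes were measured, 2 higher and 7 lower in AhR, with a median of -0.11 that became 0.063 without control 1. Pmvk and Mvd (mevalonate diphosphate decarboxylase, -0.22) had the lowest differences. Mvk, mevalonate kinase, was among the 2 highest, at 0.05 (0.14 without control 1).

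Of the sterol steps 13 of 14 were measured, 5 higher and 8 lower, with a median of -0.04 that became 0.039 without control 1. Tm7sf2, a sterol C14 reductase, had the lowest difference at -0.43, which became -0.14 without control 1, followed by Erg28, and Cyp51 (0.10) and Sc5d (0.08), a desaturase late in the pathway, the highest. Of the SREBP2 control genes 7 of 10 were measured, 3 higher and 4 lower, with a median of -0.03 that became 0.013 without control 1. Insig2, the second INSIG gene, had the lowest difference at -0.37, followed by Insig1, and Scap (0.07) and Rnf139 (0.03), an endoplasmic reticulum ubiquitin ligase, the highest. Insig2 had 0.04, 0.30, 0.16 and 0.80 in controls, and -0.86, 0.03, 0.01 and 0.63 in AhR arrays. It was thus lowest on AhR 1, where Insig1 was highest, and among its higher values on AhR 4, where Insig1 was lowest.

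Uptake and transport had 11 of 12 genes measured, 4 higher and 7 lower, with a median of -0.02. Npc1, which exports cholesterol from lysosomes, was among the 2 lowest, at -0.10 (-0.02 without control 1), and the sterol carrier Stard4 among the 2 highest, at 0.10.

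The high values on control 1 and AhR 1 extended to other genes of these steps but not to all. Of the 17 measured mevalonate and sterol genes outside the 7, 14 were highest among controls on control 1, 11 were highest among AhR arrays on AhR 1, and 10 did both (58.8%), against 6.82% of all genes. Among all genes, 26.7% were highest on control 1 and 26.4% on AhR 1 in their group. With the mean of the 7 genes, 6 of the 17 had r of 0.7 or more (35.3%), against 3.65% of all other genes. These were Acat2 (0.97), Hsd17b7 (0.90), Msmo1 (0.89), Fdft1 (0.88), Mvk (0.86) and Tm7sf2 (0.83), named after their values were seen. On control 1, Tm7sf2 was 1.15, Hsd17b7 1.10 and Fdft1, squalene synthase, 1.00 above the mean of the other controls. Others did not follow: Dhcr7, the last reductase of the pathway, had r = 0.05, and Nsdhl, which acts in C4 demethylation, had r = -0.39. Without control 1 and AhR 1, 0 of these 6 genes and 1 of the 17 (Ebp, at 0.84) had r of 0.7 or more, against 6.01% of all genes, and the median r of the 17 was 0.08. In the uptake list only Scarb1, a receptor for HDL cholesterol, had r over 0.7, at 0.76, and 0 of 5 other SREBP2 control genes did.

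Across all 9997 other named genes, Acat2, the acetyl-CoA acetyltransferase that begins the pathway, was the gene most like the mean of the 7, with r = 0.97 over 8 arrays. It had -0.13, -0.77, -0.76 and -1.01 in controls, and -0.45, -0.84, -0.90 and -0.92 in AhR arrays. The next 14 by the same measure were Cdc14a, Aldoc, Ube2d1, Rab1b, Dclk3, Mrps30, Cfap36, Castor1, Tubg1, Ncam1, Pfkfb1, Khdrbs1, Flrt2 and Irx1, down to r = 0.91. Acat2 was thus the only gene of the 4 cholesterol lists among the first 15. The 5 of lowest r were Snap47 (-0.96), Lamtor4 (-0.95), Zup1 (-0.94), Gm2a (-0.93) and Defb22 (-0.93). Taken gene by gene, the closest to Idi1 was Hsd17b7, a sterol ketoreductase (r = 0.96), and those closest to Sqle were Cdc14a (0.97) and Cyp51 (0.96). Cyp51 was closest to Usp30 (0.98), Hmgcs1 to Cdc42bpb (0.99), Fdps to C1qbp (0.96), Insig1 to Gypc (0.98) and Srebf2 to Porcn (0.95). With 8 arrays, 0.271% of all pairs of named genes reached r of 0.9. By gene, 61 others reached it with Hmgcs1, 27 with Idi1, 26 with Cyp51, 23 with Sqle, 13 each with Fdps and Srebf2, and 9 with Insig1.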

How the data were processed

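Liver RNA of 8 pools was measured on 2-colour Agilent arrays. Per the file headers, the scanner files come from version 10.7.3.1 of Agilent Feature Extraction; of these deposited intensity values the median pixel brightness of spots and of their surroundings was used. A series value table that the authors deposited is taken to be log2, with no scale stated; its columns followed the log2 of Cy5 over Cy3 from the scanner values with r of 0.9898 to 0.9943 across probes, slopes of 0.978 to 0.988 and medians of 0.00569 to 0.0165, and the form of its dye correction stays unknown. The processed signals and the log10 ratio that the scanner software wrote were background-subtracted and dye-normalized, per the file headers. The log2 ratio of the processed signals served as an alternative, and the log10 ratio was not used. Probe coordinates belong to an older genome build and are not given.

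In limma 3.58.1 (R 4.3.3), normexp (offset 50) preceded a loess fit within each array, to which control spots and flagged outliers gave no weight. Values of a single dye had the same background correction and were quantile-normalized between arrays, with no loess fit. Repeated spots of a probe were averaged. Of 62976 spots, 4259 were control spots; the others made 30367 probes. A probe stayed in when Cy5 was well above background on 4 or more of the 8 arrays, which left 17859. RefSeq identifiers without versions, matched to the RefSeq gene table of GRCr8, named 18004 probes, 11656 of them among those left. The number of arrays limits the precision.

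Groups were compared with lmFit and eBayes over all kept probes, with Benjamini-Hochberg adjustment, beside two-sided exact permutation tests. Pearson r and Spearman rho were tested by exact permutation over the 40320 orders of 8 arrays. The scripts were tested on simulated data. The members and gene lists were chosen with earlier results of these data known. Named were the 7 genes, the 2 lowest and 2 highest differences of each pathway list, the 15 genes most and the 5 least like the mean of the 7, and the 3 genes closest to each, of which the first or first 2 are given; other names were chosen after their values were seen. Some genes that this rule names are not reported here. Alternatives covered background correction, normalization, single channels, the filter on dim probes, the probe of a gene, the replicate block, slide row, variance trend, leaving out single arrays, and the value table.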

Additional observations from a re-analysis of the deposited data

Results flagged for a closer look

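Each gene of the 4 cholesterol lists was examined in each group of 4 arrays for a single array far from the rest, measured as its gap to the nearest array over the whole range of the group, with a limit of 0.829. Of 80 such groups 8 passed. The limit is set so that about 1 in 20 independent groups of normally distributed values would pass. These groups share the same arrays, and the share passing over all genes is not given here, so the count is a description. Idi1 in controls had a gap of 0.864 of its range, with control 1 at 0.17 and the next array at -1.08. Sqle in AhR arrays had 0.875, with AhR 1 at -0.38 and the next at -1.22. These were the 2 among the 7 genes.

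Among the other genes, control 1 stood high for Lss, oxidosqualene cyclase (0.8998), and Sc5d (0.836), and AhR 1 stood high for Mvk (0.855) and Dhcr7, the last reductase of the pathway (0.834). In 2 further groups 1 array stood low: AhR 4 for Sc5d (0.864) and AhR 1 for Tmem97, a sterol-binding membrane protein (0.841). Control 1 was thus the high array in 3 of the 8 groups and AhR 1 in another 3.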

How the results depend on the processing

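No alternative gave a call for any of the 7 genes: their lowest adjusted limma p under 20 alternatives was 0.913 and the largest absolute difference 0.46. Fits with a replicate block gave 0 calls, and over all genes arrays of the same number did not deviate together (r of deviations from group means of 0.00268, -0.0619, 0.0480 and -0.369), although Idi1, Sqle and Cyp51 were high on both arrays numbered 1. Of 140 gene values 20 changed sign, each a difference whose interval held 0, and the cause was not tested. Without control 1, Hmgcs1 became 0.06, Idi1 0.16, Fdps 0.04 and Srebf2 0.06; without control 1 and AhR 1 together, a setting added after seeing the data, Idi1 became 0.01, Srebf2 0.02 and Insig1 -0.31. Without controls 2, 3 or 4, Sqle became -0.05, -0.11 or -0.15, and without AhR 1 -0.23; Cyp51 became -0.01 without control 4 or AhR 1; Fdps 0.02 without control 3; Srebf2 0.06 without AhR 2; without AhR 4, Fdps and Insig1 each became 0.13. With median centring Srebf2 became 0.05 and Fdps 0.03, with the mean of probes Fdps 0.01, and with Agilent's processed signals Srebf2 0.01.

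With 1 array left out, differences ranged from -0.46 to 0.06 for Hmgcs1, -0.34 to 0.16 for Idi1, -0.12 to 0.13 for Fdps, -0.23 to 0.32 for Sqle, -0.01 to 0.30 for Cyp51, -0.28 to 0.13 for Insig1 and -0.09 to 0.06 for Srebf2. List medians then ranged from -0.22 to 0.063 (mevalonate steps), -0.156 to 0.039 (sterol steps), -0.069 to 0.067 (SREBP2 control) and -0.057 to -0.001 (uptake), the median r from 0.477 to 0.744, the median SD from 0.274 to 0.436, and the counts of calls stayed at 0. The SREBP2 control median became 0.048 with median centring. The median r became 0.634 with median centring, 0.595 as Spearman rho, 0.236 without control 1 and AhR 1, and -0.091 in Cy3; the median SD became 0.157 without those 2 arrays.

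With 4 arrays per group and pools whose litters are not named, intervals of Sqle, Idi1 and Hmgcs1 stay wide; all 7 genes were well above background on 8 of 8 arrays.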

Other observations

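Other lipid genes were read from lists chosen with earlier results known, and the genes named here were picked after their values were seen. Cyp7a1, the rate-limiting enzyme of bile acid synthesis, had 0.71, -1.13, -1.53 and -1.04 in controls, and 0.42, -0.84, -1.84 and -0.78 in AhR arrays. Control 1 and AhR 1 were again its 2 highest arrays, and its r with the mean of the 7 genes was 0.82. It was the only one of 12 bile acid genes with r of 0.7 or more. Of 16 fatty acid synthesis genes measured, 2 had r of 0.7 or more: Aacs (0.89) and Acss2 (0.71), both of which make acyl-CoA substrates in the cytosol. Fasn, fatty acid synthase, had r = -0.23, with control 1 its lowest control at -0.29.

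The clock output gene Dbp had 0.32, -1.36, -1.52 and -0.42 in controls, and 1.41, 1.22, 0.08 and -2.21 in AhR arrays. It was highest on control 1 and on AhR 1 within each group, and AhR 2 was close to AhR 1. Its r with the mean of the 7 genes was 0.48. Of 13 clock genes measured, 2 were highest on both control 1 and AhR 1, against 6.82% of all genes. In that list 0 had r of 0.7 or more, against 3.65% of all other genes. A part of the time of sampling was not tested.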
